A study of Mus musculus with 4 samples.

Results

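Type IB neurons of the mouse cochlea were divided by their level of Lypd1, a gene that marks type IC, a sister class. The cells of both sides were chosen by this measured level. A cell was called Lypd1-high when Lypd1 made up at least 2 of every 10000 of its unique molecular identifiers (UMIs, each of which tags 1 captured RNA molecule), and Lypd1-low when it made up less. Only cells of at least 10000 UMIs were used, so that 2 molecules could be expected in a cell at the threshold. Of 6713 neurons in all, 1625 carried the deposited label type IB, and 1123 of these were deep enough. They split into 239 Lypd1-high and 884 Lypd1-low cells. All cells came from 4 male wild-type mice, 9 weeks old and of strain CBA/CaJ, with 1 droplet library each from the dissociated modiolus, the bony core of the cochlea, and adjoining tissue. The labels name no transgene and no treatment, and each mouse was kept as its own sample. Mice 1 to 4 gave 48, 88, 68 and 35 Lypd1-high cells, and 183, 287, 241 and 173 Lypd1-low cells. Levels below are sums over the cells of 1 side in 1 mouse unless stated otherwise, in UMI counts per 1000000 UMIs (CPM). Both sides of a mouse were compared within that mouse. Since Lypd1 chose the cells, it was left out of every test of single genes. It was also left out of the totals behind the CPM of these genes. The totals behind the CPM of Lypd1 itself, of summed marker lists, of finer Lypd1 ranges and of the likeness to Lypd1 did include it.

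Spiral ganglion neurons are the afferent neurons that relay hair cell signals to the brain. The myelinated type I neurons contact inner hair cells and fall into 3 molecular classes, IA, IB and IC, which are known for high calretinin (Calb2), for calbindin (Calb1), and for Lypd1 with the transcription factor gene Pou4f1. Lypd1 encodes a small lipid-anchored protein of the Ly6 family, some members of which bind nicotinic acetylcholine receptors and modulate them.

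Libraries held between 15151343 and 27309045 UMIs over all their neurons, with medians of 10072 to 17834 UMIs per cell. Across the series 52 cells carried a barcode that also occurred in another library, 9 of them deep type IB cells. Lypd1-high type IB cells had 48.2 ± 18.9 CPM of Ttn and 52.9 ± 7.54 CPM of Calb1, both type IB markers, against 69.6 ± 11.1 and 70.7 ± 6.42 CPM in Lypd1-low type IB cells, 4.20 and 8.95 CPM in type IC, and 3.35 and 5.24 CPM in type IA (SD over 4 mice). Both sides stood above the other type I classes in these 2 markers. In Kcnd2, a further type IB marker, Lypd1-high cells had 9.17 ± 2.01 CPM and Lypd1-low cells 15.4 ± 3.44 CPM, against 8.03 ± 1.65 CPM in type IC, so the Lypd1-high side was close to type IC there. The 6 type II markers summed to 37.1 ± 5.01 CPM in Lypd1-high and 38.9 ± 5.42 CPM in Lypd1-low cells. In Lypd1-low cells most of this was Gata3. With 4 mice pooled, it stood at 34.6 CPM under 1 and 35.2 CPM at 1 to under 2 Lypd1 UMIs per 10000. Of the others, Ano2, Calca and Th stood between 0 and 0.812 CPM in every sum of either side.

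The Lypd1 values that made the split are given here as a description. Lypd1 stood at 680.3 ± 77.2 CPM in Lypd1-high and 77.1 ± 9.37 CPM in Lypd1-low type IB cells. Type IC cells had 3033 ± 213 CPM and type IA cells 111 ± 23.7 CPM, and the Lypd1-low cells of type IA, split by the same rule, had 70.4 ± 11.9 CPM. Lypd1-high cells made up 20.8%, 23.5%, 22.0% and 16.8% of deep type IB cells in mice 1 to 4, a mean of 20.8% ± 2.85 (SD, n = 4). By the same rule 99.2% ± 0.601 of type IC and 9.94% ± 3.20 of type IA cells would be Lypd1-high. Type IA is the class that should lack the gene, and its share was 9.18%, 10.2%, 14.1% and 6.33% in mice 1 to 4, below that of type IB in each. Its median depth was 15569 UMIs per cell, against 15705 in type IB and 16649 in type IC.

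Type IB exceeded type IA in each range above the threshold. Between 2 and 4 Lypd1 UMIs per 10000 lay 12.0% of type IB and 8.82% of type IA cells. Between 4 and 10 they were 4.45% of type IB and 0.543% of type IA cells. At 10 or more, where 97.8% of type IC cells lay, there were 54 type IB cells (4.81%) and 16 type IA cells (1.09%). Those 54 cells held 42.3% of all Lypd1 UMIs of deep type IB cells. The lowest Lypd1-high cell had 3 Lypd1 UMIs of 14971, a rate of 2.00 per 10000 (mouse 4), and the highest Lypd1-low cell had 5 of 25015 (mouse 1). Within 0.5 per 10000 of the threshold there were 64 Lypd1-high and 117 Lypd1-low cells, and at such low UMI numbers the side of a cell near the threshold is uncertain.

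**Figure D1:**
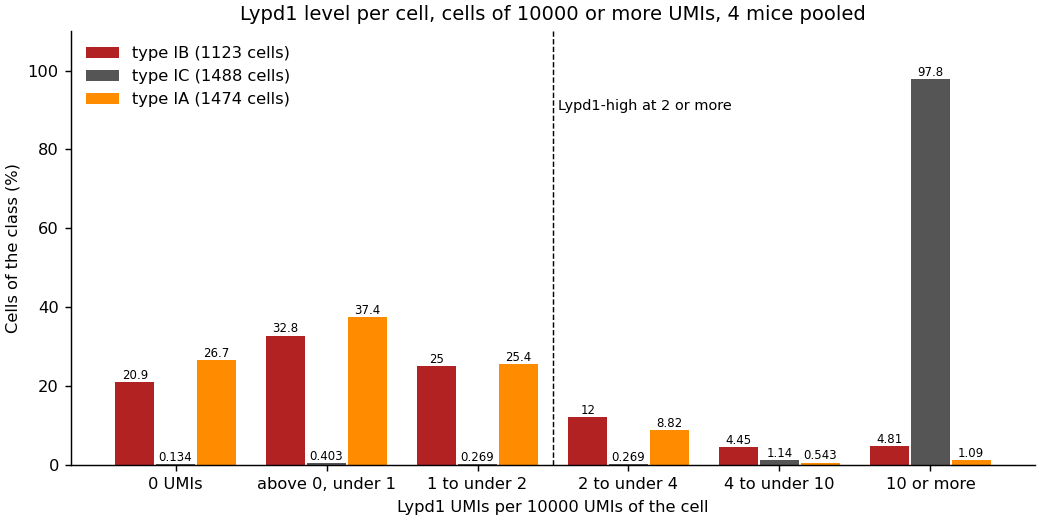
Share of cells (%, vertical axis) in each range of Lypd1 UMIs per 10000 UMIs (horizontal axis) for type IB, type IC and type IA neurons of at least 10000 UMIs, 4 mice pooled. Bars of type IB and type IA are of similar height up to the range from 2 to under 4 (12.0% and 8.82%), while 97.8% of type IC cells are at 10 or more.

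Depth and other cells' RNA were compared between the sides with an exact two-sided sign-flip permutation test over the 4 mice, which cannot go below p = 0.125. The family held 34 such measures, so no p adjusted over it can pass. Median depth was 16712 ± 3340.1 UMIs in Lypd1-high and 16262 ± 3276 UMIs in Lypd1-low cells, higher on the Lypd1-high side in 2 of 4 mice (exact p = 0.5). Median genes detected per cell were 4807 ± 460.3 in Lypd1-high and 4714 ± 449.8 in Lypd1-low cells, higher on the Lypd1-high side in 4 of 4 mice (exact p = 0.125). The 8 satellite glia markers summed to 2156 to 2676 CPM in Lypd1-high and 2182 to 2606 CPM in Lypd1-low sums, and these ranges overlapped. The 6 Schwann cell markers, from the glia that myelinate these axons, summed to 3619 ± 196 CPM in Lypd1-high and 3438 ± 176 CPM in Lypd1-low cells, higher on the Lypd1-high side in 4 of 4 mice (exact p = 0.125). Red blood cell genes summed to 324 to 1737 CPM in Lypd1-high and 322 to 1652 CPM in Lypd1-low sums, with mouse 4 the highest on both sides.

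With mouse as a block, edgeR's quasi-likelihood test called 34 of 10160 genes at a Benjamini-Hochberg adjusted p under 0.05, a background of 0.335%. Of these 20 rose (0.197%) and 14 fell (0.138%) in Lypd1-high cells, and 5 of the 34 differed by 2-fold or more. In 18 of the 34 the CPM of the 4 Lypd1-high sums did not overlap those of the 4 Lypd1-low sums, as they did not for 3.17% of all genes tested (1.75% higher and 1.42% lower in Lypd1-high). Without mouse as a block the same test called 6 genes, and DESeq2 with the block called 8. The count also rests on single mice: 11 genes were called without mouse 1, 7 without mouse 2, 19 without mouse 3 and 45 without mouse 4. Pou4f1, Tagln3, Gng3, Pcsk2, Calb2 and Fth1 were called without each of the 4 mice in turn. With the 54 cells at 10 or more per 10000 removed from the Lypd1-high side, 5 of the 34 were still called, namely Pou4f1, Tagln3, Gng3, Pcsk2 and Calb2.

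Pou4f1, a POU-domain transcription factor of sensory neurons and itself a type IC marker, had the lowest adjusted p of the genes that rose. Its level was 63.0, 60.2, 68.2 and 49.8 CPM in the Lypd1-high sums of mice 1 to 4, against 24.8, 22.1, 23.7 and 22.8 CPM in the Lypd1-low sums. The groups did not overlap, and each Lypd1-high sum was at least 2-fold above its partner. The fitted log2 difference was 1.40 ± 0.13 (SE, edgeR adjusted p = 2.44e-14), and type IC stood at 164 ± 8.89 CPM. Without the 54 highest cells it was 1.03. The gene lies on chromosome 14 of GRCm38, from 104461676 to 104467999 on the minus strand, in the reference annotation.

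Grm8, a metabotropic glutamate receptor and the other type IC marker that rose, was at 17.3, 5.87, 7.31 and 12.4 CPM in Lypd1-high against 3.23, 3.32, 1.47 and 1.24 CPM in Lypd1-low sums. Its Lypd1-high values ranged widely but lay above every Lypd1-low value, on only 40 UMIs in Lypd1-high and 35 UMIs in Lypd1-low cells (log2 2.01 ± 0.36, edgeR adjusted p = 0.000396). The call was lost without mouse 1. Ccdc109b, also known as Mcub, a subunit of the mitochondrial calcium uniporter, was at 14.2, 19.1, 8.93 and 16.6 CPM in Lypd1-high against 4.04, 2.85, 4.65 and 4.15 CPM in Lypd1-low sums (log2 1.89 ± 0.29, edgeR adjusted p = 1.24e-05). The groups did not overlap, and the type IC level was 84.7 ± 7.76 CPM. This call was lost without mouse 2, and without the 54 highest cells the log2 difference was 1.21 (edgeR adjusted p = 0.545).

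Further genes that rose were Pcsk2, Rph3a, Dnm3 and Resp18. Pcsk2, a convertase that cuts neuropeptide precursors, had 49.8, 61.6, 68.2 and 70.5 CPM in Lypd1-high against 35.3, 38.9, 31.3 and 34.0 CPM in Lypd1-low sums (log2 0.81 ± 0.12, edgeR adjusted p = 2.76e-06). No Lypd1-low sum reached a Lypd1-high one. Rph3a (rabphilin), a Rab3 effector on synaptic vesicles, had 39.6, 45.5, 43.8 and 43.6 CPM in Lypd1-high against 27.7, 21.8, 24.2 and 24.5 CPM in Lypd1-low sums (log2 0.82 ± 0.14, edgeR adjusted p = 0.000122), again without overlap. Dnm3, a dynamin of membrane fission, had 229 ± 23.5 CPM in Lypd1-high and 185 ± 17.2 CPM in Lypd1-low cells (log2 0.30 ± 0.06, edgeR adjusted p = 0.00162). Resp18, a protein of the regulated secretory pathway, had 557 ± 49.1 CPM in Lypd1-high and 494 ± 37.5 CPM in Lypd1-low cells, and overlapped between them (log2 0.17 ± 0.04, edgeR adjusted p = 0.0161). Rph3a and Dnm3 lost their calls without mouse 2, and Resp18 without mouse 1, 2 or 3.

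Tagln3, Gng3 and Espn rose as well. Tagln3, a calponin-family protein of neurons, had 362, 446, 425 and 407 CPM in Lypd1-high against 300.3, 314, 294 and 281 CPM in Lypd1-low sums (log2 0.46 ± 0.05, edgeR adjusted p = 1.06e-11). All 4 Lypd1-high sums were above all 4 Lypd1-low sums, and this was the one called gene of the 34 that stayed called under each of the 20 alternative settings run. Pou4f1 was called in 19 of the 20, and the remaining setting gave it no adjusted p. Gng3, a gamma subunit of heterotrimeric G proteins, had 899, 984, 986 and 855 CPM in Lypd1-high against 755, 867, 803 and 633 CPM in Lypd1-low sums (log2 0.26 ± 0.03, edgeR adjusted p = 1.13e-07). Its groups overlapped, with mice 2 and 3 high and mouse 4 low on both sides, while the Lypd1-high sum was the higher in each mouse. Espn (espin), an actin-bundling protein best known from hair cell stereocilia, had 24.4, 37.4, 23.5 and 41.5 CPM in Lypd1-high against 21.3, 17.6, 10.0 and 21.2 CPM in Lypd1-low sums (log2 0.86 ± 0.17, edgeR adjusted p = 0.00168), with the smallest gap in mouse 1. Its call was lost without mouse 2.

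The other genes that rose were called with smaller sums or smaller differences. Plcd4, a phospholipase C, had 25.1 CPM in Lypd1-high and 14.4 CPM in Lypd1-low cells (log2 0.85 ± 0.18). The myosin light chain gene Myl9 had 43.9 CPM in Lypd1-high and 31.6 CPM in Lypd1-low cells (log2 0.53 ± 0.13), and Serpini1 (neuroserpin), an inhibitor of tissue plasminogen activator, had 211 CPM in Lypd1-high and 159 CPM in Lypd1-low cells (log2 0.34 ± 0.07). Mapk8ip1, a scaffold of JNK signalling, had 231 CPM in Lypd1-high and 196 CPM in Lypd1-low cells (log2 0.23 ± 0.06), and Ostf1 had 556 CPM in Lypd1-high and 490.1 CPM in Lypd1-low cells (log2 0.18 ± 0.04). Each of these 5 lost its call without 1 or more of mice 1, 2 and 3 (Mapk8ip1 without any of the 4). Hmcn1, Nup160, Fth1 and Scd2 were called as well and fell outside the naming rule: Fth1, the ferritin heavy chain, had 10090.0 CPM in Lypd1-high and 9163 CPM in Lypd1-low cells, and Nup160, a nuclear pore protein, rested on 34 UMIs in Lypd1-high and 35 UMIs in Lypd1-low cells.

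Calb2, which encodes the calcium buffer calretinin, had the lowest adjusted p of all genes and fell. It stood at 2315, 1784, 2101 and 1743 CPM in Lypd1-high against 2950.1, 2382, 2822 and 2325 CPM in Lypd1-low sums of mice 1 to 4. The highest Lypd1-high sum was just under the lowest Lypd1-low sum, so the groups did not overlap. The log2 difference was -0.41 ± 0.03 (edgeR adjusted p = 2.53e-21). Type IC had 716 ± 118 CPM and type IA 10421 CPM, so both sides of type IB lay between these classes. Calb2 lies on chromosome 8 of GRCm38, from 110137502 to 110168210 on the minus strand.

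Both leading type IB markers fell with it. Calb1, which encodes calbindin, had 42.7, 59.4, 57.6 and 51.9 CPM in Lypd1-high against 66.0, 79.5, 71.5 and 66.0 CPM in Lypd1-low sums (log2 -0.43 ± 0.11, edgeR adjusted p = 0.0400), without overlap. Ttn, the giant muscle protein titin, had 36.6, 33.0, 48.7 and 74.7 CPM in Lypd1-high against 68.1, 54.8, 74.6 and 80.9 CPM in Lypd1-low sums (log2 -0.62 ± 0.12, edgeR adjusted p = 0.000595). It was lower in Lypd1-high cells in each mouse, by least in mouse 4, whose Lypd1-high sum overlapped the Lypd1-low sums. The call of Calb1 was lost without mouse 1, 2 or 3 and that of Ttn without mouse 1 or 2. Without the 54 highest cells the log2 differences were -0.28 for Calb1 (edgeR adjusted p = 0.859) and -0.42 for Ttn (edgeR adjusted p = 0.351). Deep type IB cells with a Calb1 UMI were Lypd1-high in 110 of 587 (18.7%), and those without one in 129 of 536 (24.1%), with the lower share among Calb1-positive cells in each of the 4 mice.

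Further genes fell by less. Syt7, a calcium sensor of vesicle release, had 202, 218, 233 and 212 CPM in Lypd1-high against 283, 232, 265 and 257 CPM in Lypd1-low sums (log2 -0.25 ± 0.06, edgeR adjusted p = 0.0185). It was lower within each mouse, although mouse 3 on the Lypd1-high side passed mouse 2 on the Lypd1-low side. Cd24a, a small surface glycoprotein, had 1099, 1029, 1179 and 1014 CPM in Lypd1-high against 1277, 1125, 1278 and 1161 CPM in Lypd1-low sums (log2 -0.16 ± 0.03, edgeR adjusted p = 0.00129). The Cd24a sums of both sides overlapped across mice but not within any. Tshz2, a zinc finger transcription factor, had 289 ± 33.2 CPM in Lypd1-high and 335 ± 23.1 CPM in Lypd1-low cells (log2 -0.21 ± 0.05, edgeR adjusted p = 0.0211). Rasgrp2, an exchange factor of Rap GTPases, was called but not lower in every mouse: it had 150.4, 142, 231 and 241 CPM in Lypd1-high against 205, 191, 276 and 216 CPM in Lypd1-low sums, with mouse 4 the other way. The calls of Syt7 and Cd24a were lost without mouse 1 or 2, and those of Tshz2 and Rasgrp2 without mouse 1, 2 or 3. Gm13205, RP23-216D14.3 and 1810011O10Rik were called too. Gm13205 is annotated as an antisense gene, and the labels do not say whether reads were counted by strand.

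Several genes of the mitochondrial genome were slightly lower in Lypd1-high cells. Of 13 mitochondrially encoded genes tested, 4 fell and 0 rose: mt-Nd1 and mt-Nd4 of respiratory complex I, mt-Cytb of complex III and mt-Co3 of complex IV. mt-Nd1 had 9007, 8183, 7982 and 8897 CPM in Lypd1-high against 9803, 8576, 9306 and 9115 CPM in Lypd1-low sums (log2 -0.12 ± 0.02, edgeR adjusted p = 0.00213). mt-Cytb had 9234 ± 369 CPM in Lypd1-high and 9983 ± 421 CPM in Lypd1-low cells (log2 -0.12 ± 0.02, edgeR adjusted p = 0.00129). Each lost its call without at least 2 of the 4 mice, mt-Cytb without mouse 2 or 3 and the other 3 without mouse 1, 2 or 3. The list's median log2 difference was -0.08, against 0.01 over all genes tested. Nuclear genes of oxidative phosphorylation had a median of -0.03, with 0 of 69 called, where 0.335% of all genes tested were called.

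**Figure D2:**
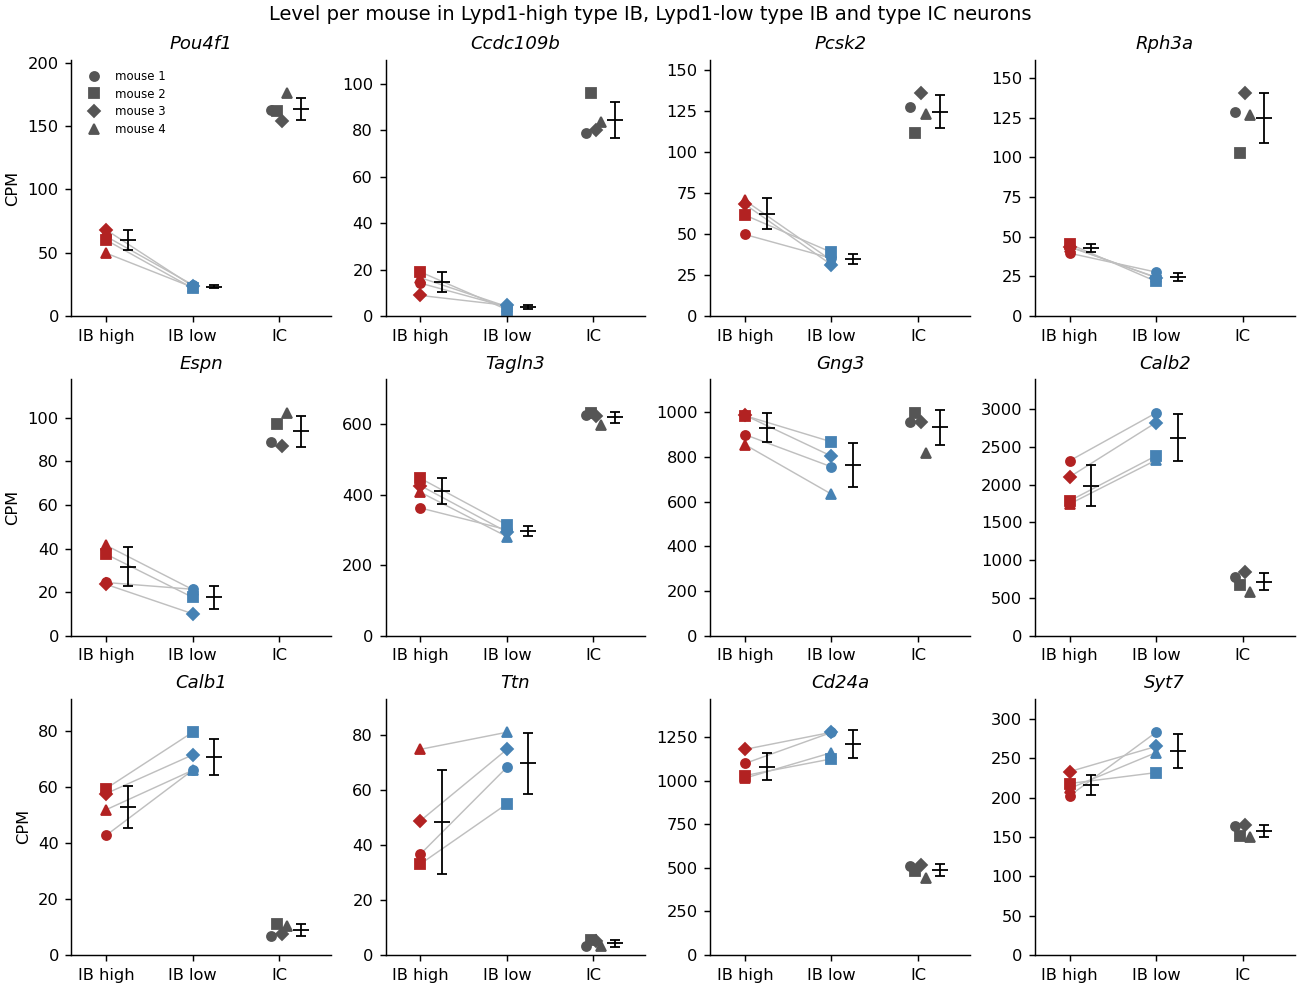
CPM (vertical axes, each from 0) of 12 genes in Lypd1-high type IB, Lypd1-low type IB and type IC neurons; each symbol is 1 mouse, grey lines join both sides of a mouse, and black bars are the mean ± SD over 4 mice. The mean of the Lypd1-high sums lies between the Lypd1-low mean and the type IC mean for all 12 genes shown, and for Gng3 it is at the type IC mean.

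**Figure D3:**
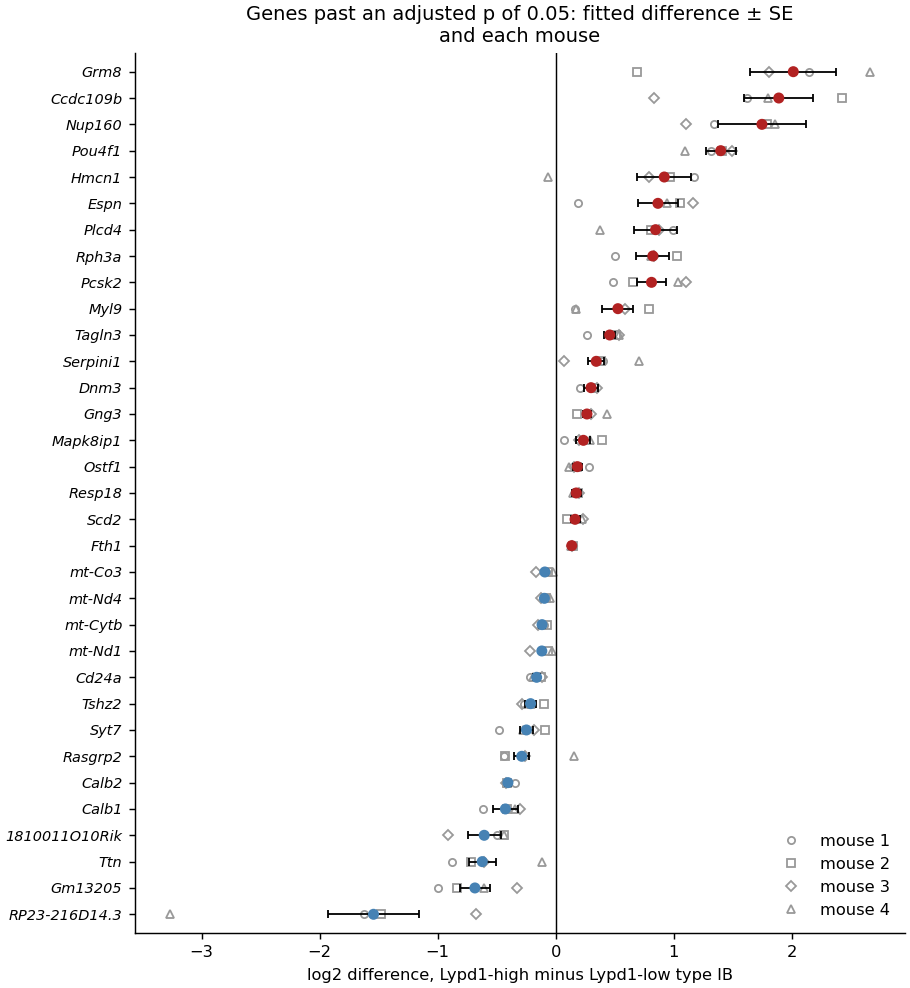
Log2 difference, Lypd1-high minus Lypd1-low type IB (horizontal axis), of the called genes (1 of the 34 is not shown): filled points with bars are the fitted difference ± SE, open symbols the difference in each mouse. The genes shown keep 1 direction in all 4 mice except Hmcn1 and Rasgrp2, where mouse 4 lies on the other side of 0.

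The subtype markers were counted as lists that were drawn up with earlier results of these data known. For all 10160 genes tested, 0.197% rose, 0.138% fell, 5252 had a log2 difference above 0, and the median was 0.01. Of 7 type IC markers tested, Pou4f1 and Grm8 rose, 0 fell, and the median log2 difference was 0.25, all 7 being above 0. Of the markers that did not pass the test, Sema3a, a secreted guidance cue, had a log2 difference of 0.38 ± 0.24 and the transcription factor gene Runx1 one of 0.25 ± 0.09. Slc17a6 (vesicular glutamate transporter VGLUT2) had 0.12 ± 0.07 and Ntng1 (netrin-G1) 0.07 ± 0.06. Type IB and type IC were close in Runx1, at 89.6 CPM in Lypd1-high type IB, 76.0 CPM in Lypd1-low type IB and 83.7 CPM in type IC. Of 6 type IB markers tested Calb1 and Ttn fell and 0 rose, with a median of -0.48: Kcnd2, an A-type potassium channel, had 9.17 ± 2.01 CPM in Lypd1-high and 15.4 ± 3.44 CPM in Lypd1-low cells (log2 -0.65 ± 0.24, edgeR adjusted p = 0.528). Lrrc52 and Lypd6 had log2 differences of 0.07 ± 0.23 and -0.19 ± 0.19. Of 4 type IA markers tested Calb2 fell and 0 rose, with a median of -0.36, and Rxrg, a retinoid receptor, had 11.2 ± 2.25 CPM in Lypd1-high and 15.0 ± 0.266 CPM in Lypd1-low cells (log2 -0.47 ± 0.23, edgeR adjusted p = 0.730).

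Levels over finer ranges of Lypd1 within type IB are given for Pou4f1, Tagln3, Ccdc109b, Calb2, Ttn, Calb1 and Grm8, which were picked after their values were seen. Over the ranges under 1, 1 to under 2, 2 to under 4, 4 to under 10, and 10 or more Lypd1 UMIs per 10000, Pou4f1 was at 21.9, 26.3, 32.5, 89.1 and 105 CPM. Tagln3 was at 297, 303, 354, 476 and 498 CPM and Ccdc109b at 3.44, 4.76, 7.67, 12.6 and 31.9 CPM over the same ranges. Calb2 was at 2616, 2697, 2351, 1654 and 1521 CPM, Ttn at 69.0, 66.7, 57.3, 33.1 and 21.6 CPM and Calb1 at 68.7, 77.0, 68.5, 37.7 and 35.0 CPM. In the first 6 of these other than Ccdc109b, most of the step lay between the ranges 2 to under 4 and 4 to under 10, and both ranges on the Lypd1-low side were close to each other. Grm8 stood highest in the last range, with 2.92, 1.45, 4.06, 6.85 and 25.8 CPM. Not every called gene followed such an order: Resp18 was at 501, 496, 550.1, 621 and 569.6 CPM and Nup160 at 2.71, 1.86, 10.4, 4.57 and 7.21 CPM. Median depth was 14952, 16254, 15451, 17121 and 17005 UMIs per cell over the 5 ranges. These are pooled counts of 4 mice, given without a test.

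Shares of cells with a UMI were compared at equal depth. With each cell thinned to 10000 UMIs, Pou4f1 was detected in 43.5% of Lypd1-high (exact 95% binomial interval 37.1 to 50.1%) and 20.6% of Lypd1-low cells (18.0 to 23.4%), against 75.5% of type IC and 6.31% of type IA cells. Ttn was detected in 28.0% of Lypd1-high and 43.7% of Lypd1-low cells, against 3.76% of type IC and 3.12% of type IA cells. Among the 54 cells at 10 or more per 10000, 66.7% had a Pou4f1 UMI and 33.3% had a UMI of Calb1 or Ttn (21.1 to 47.5%), against 11.7% of type IC cells with Calb1 or Ttn. Without thinning, Pou4f1 was detected in 58.2% of Lypd1-high and 29.8% of Lypd1-low cells, and Ttn in 39.3% of Lypd1-high and 54.3% of Lypd1-low cells. After thinning, a UMI of Pou4f1 together with one of Calb1 or Ttn occurred in 21.8% of Lypd1-high and 13.5% of Lypd1-low type IB cells. In type IC it was 8.94% and in type IA 0.407% of cells. Calb1 or Ttn by itself was detected in 53.1% of Lypd1-high and 66.1% of Lypd1-low cells. Whether both occurred together more often than their separate shares give was not tested. Whether 2 cells in 1 droplet contributed was not tested, with a doublet caller or otherwise. In a further setting, the 10% of type IB cells with the most UMIs in each mouse were left out, 29 of them Lypd1-high. This changed the number of cells summed as well as their depth, and was no test for doublets. With those cells left out, 29 genes were called.

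**Figure D4:**
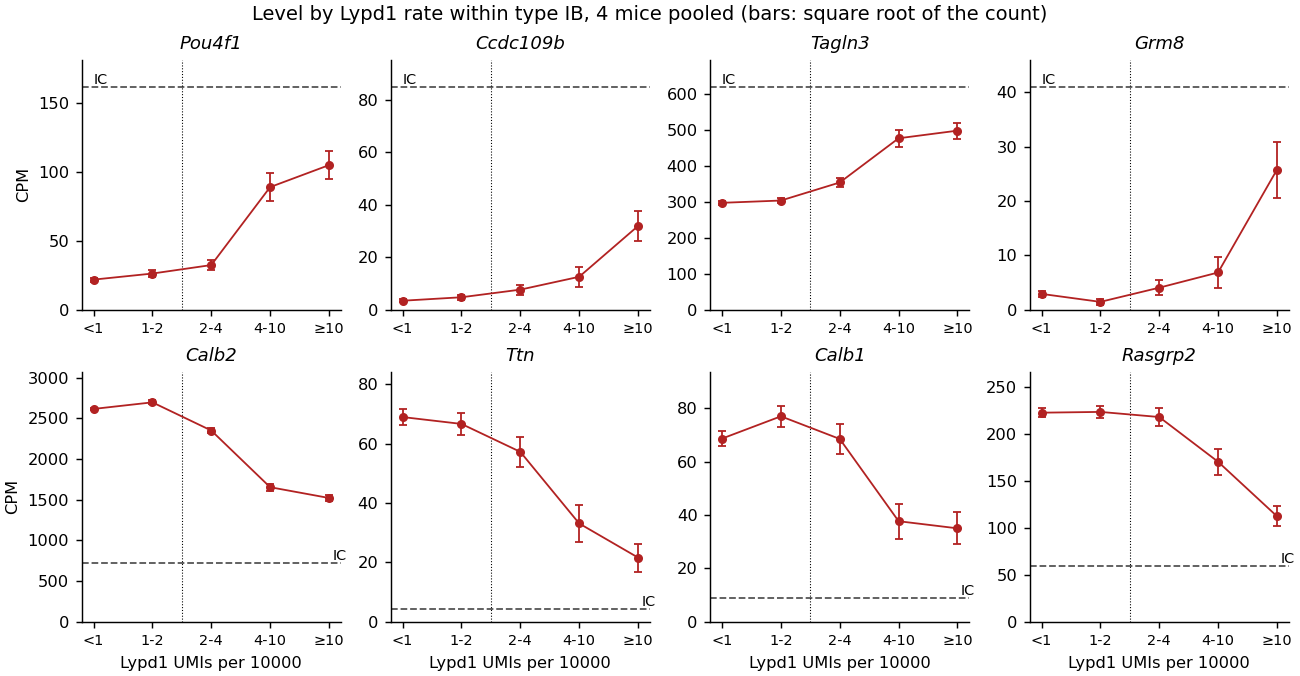
CPM (vertical axes, each from 0) of 8 genes over 5 ranges of Lypd1 UMIs per 10000 (horizontal axes) within type IB, 4 mice pooled; bars are the square root of the count (counting error only), dashed lines the type IC level, dotted lines the threshold of 2. Pou4f1, Ccdc109b, Tagln3 and Grm8 stand highest and Calb2, Ttn, Calb1 and Rasgrp2 lowest in the range at 10 or more.

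Lypd1-high type IB cells were also set against type IC, as a description of cells that the deposited labels had already placed apart. Of the 34 called genes, 32 lay on the type IC side of the Lypd1-low level. The median of the 34 was 40.2% of the log2 distance between Lypd1-low type IB and type IC. The same share over all genes tested is not given. The 34 were picked for differing between the sides, so neither value stands for genes at large. Tagln3 lay at 43.9% of that distance, Pou4f1 at 48.7%, Pcsk2 at 45.9%, Calb2 at 21.4%, Ttn at 13.1% and Cd24a at 12.4%. Scd2 was among the exceptions. edgeR called 698 of 11025 genes (6.33%) between Lypd1-high type IB and all type IC cells, 352 higher (3.19%) and 346 lower (3.14%) in Lypd1-high type IB. These counts describe the labels, since the deposited labels sort these same cells and Lypd1 chose 1 side. Lypd1-high type IB cells were higher by a log2 difference of 3.33 ± 0.19 in Ttn, 2.59 ± 0.15 in Calb1, 2.40 ± 0.30 in Lrrc52 and 2.32 ± 0.19 in the cadherin gene Cdh9. They differed in the other direction, with log2 differences of -4.03 ± 0.59 in the potassium channel gene Kcnc2, -3.21 ± 0.34 in the sulfotransferase gene Chst9 and -2.71 ± 0.11 in Sphkap, an anchor of protein kinase A. Sphkap had 88 UMIs in Lypd1-high type IB and 3718 in type IC cells.

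The same split of type IA cells served as a background, and was added after the type IB result was known. Of 1474 deep type IA cells, 154 were Lypd1-high. edgeR called 12 of 10127 genes there (0.118%), 9 higher (0.0889%) and 3 lower (0.0296%). Pou4f1 rose in type IA too, with 34.2, 22.9, 27.9 and 35.3 CPM in Lypd1-high against 6.40, 5.79, 5.35 and 5.71 CPM in Lypd1-low type IA sums (log2 2.28 ± 0.25, edgeR adjusted p = 1.23e-14). Pcsk2 rose by 1.24 ± 0.22 on the log2 scale, and Calb2 had a log2 difference of -0.19 ± 0.04. The type IA call of Pcsk2 was lost without mouse 1 (edgeR adjusted p = 0.0715), and that of Calb2 without mouse 3 (edgeR adjusted p = 0.109) or mouse 4 (edgeR adjusted p = 0.275). The split differed between type IB and type IA for 3 of 10638 genes (0.0282%, with 0.0094% higher and 0.0188% lower in type IB) by the interaction term. DESeq2 called none of these 3 (adjusted p = 0.0669 for Ntng1, 0.989 for Slc17a6 and 0.999 for Hba-a1) and called 1 other gene, Fth1 (adjusted p = 0.00302). Slc17a6 was at 38.0, 28.6, 39.3 and 102 CPM in Lypd1-high against 18.3, 21.0, 15.7 and 11.8 CPM in Lypd1-low type IA sums, a split that exceeded that of type IB (difference of log2 differences, type IB minus type IA, -1.09 ± 0.20, edgeR adjusted p = 0.00252). Ntng1 did the same (-1.17 ± 0.19, edgeR adjusted p = 6.1e-05), and Hba-a1, a haemoglobin gene, was lower in Lypd1-high type IA sums (0.68 ± 0.13, edgeR adjusted p = 0.00484). The Lypd1-high sum of type IA mouse 4 held 14 cells and was the highest in Slc17a6. Without mouse 4 the interaction of Slc17a6 was -0.78 (edgeR adjusted p = 0.263), and its call was also lost without mouse 3 (edgeR adjusted p = 0.0528). That of Ntng1 was lost without mouse 3 (edgeR adjusted p = 0.105) and that of Hba-a1 without mouse 1 or 2. Slc17a6 stood at 167 CPM in Lypd1-high type IB, 205 CPM in type IC and 19.9 CPM in all type IA cells. For Pou4f1 the interaction was -0.86 ± 0.25 (edgeR adjusted p = 0.521), for Calb2 -0.21 ± 0.05 (edgeR adjusted p = 0.213), for Tagln3 0.26 ± 0.08 (edgeR adjusted p = 0.526) and for Gng3 0.27 ± 0.06 (edgeR adjusted p = 0.0751), so none of these 4 was shown to be particular to type IB. Without mouse 4 the interaction of Calb2 was called (-0.28, edgeR adjusted p = 0.0147). In type IA alone, 7 to 11 genes were called without 1 mouse, Pou4f1 among them each time.

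Type IC offered little to compare, as only 12 of its 1488 deep cells were Lypd1-low, 2 in mouse 1, 7 in mouse 2, 0 in mouse 3 and 3 in mouse 4. The interaction of side and class was called for 51 of 11259 genes (0.453%, with 0.0355% higher and 0.417% lower in type IB), and for 22 with size factors by the relative log expression method in place of trimmed means. Calb2 was at 778, 642, 841 and 569 CPM in the Lypd1-high type IC sums of mice 1 to 4, against 1788, 2296 and 1479 CPM in the Lypd1-low type IC sums of mice 1, 2 and 4. Its split was wider in type IC (type IB minus type IC, log2 0.97 ± 0.12, edgeR adjusted p = 1.58e-11).

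Beyond the subtype markers, the calls of other gene groups are listed here and in the next paragraph. Since 0.335% of all genes tested were called, 0 calls in lists this short says little about their members. Among Ly6 proteins and nicotinic receptors other than Lypd1, 0 of 12 rose and 0 fell (median log2 difference -0.01): Ly6e had a log2 difference of -0.51 ± 0.30 and Cd59b one of 0.22 ± 0.16. Among potassium channels 0 of 28 rose and 0 fell (median log2 difference 0.07), with Kcna6, a Kv1 channel, at 22.8 ± 6.92 CPM in Lypd1-high and 15.7 ± 2.44 CPM in Lypd1-low cells (log2 0.58 ± 0.19, edgeR adjusted p = 0.292). Among sodium channels 0 of 9 rose and 0 fell (median log2 difference 0.05), and among calcium channels and release channels 0 of 13 rose and 0 fell (median log2 difference -0.02). HCN channels and their partner gave 0 calls of 3. Of glutamate receptors 1 of 8 rose and 0 fell (median log2 difference 0.04), the one being Grm8, and of GABA and glycine receptors 0 of 5 rose and 0 fell (median log2 difference 0.02).

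Calcium-binding proteins moved through the pair already named: 0 of 18 rose and 2 fell (median log2 difference -0.01), while Ncald, a neuronal calcium sensor, had 13.9 ± 2.56 CPM in Lypd1-high and 8.76 ± 2.77 CPM in Lypd1-low cells (log2 0.65 ± 0.24, edgeR adjusted p = 0.492). Among synaptic vesicle and release genes 0 of 32 rose and 1 fell (median log2 difference 0.02), the one being Syt7, and Cplx2 (complexin) had a log2 difference of 0.61 ± 0.35. Among transcription factors 1 of 46 rose and 1 fell (median log2 difference 0.08), namely Pou4f1 and Tshz2, and Ebf3 and Nr2f1 had log2 differences of 0.55 ± 0.23 and 0.52 ± 0.24. Among axon guidance genes 0 of 30 rose and 0 fell (median log2 difference 0.07), with the receptor Nrp2 at 19.3 ± 3.72 CPM in Lypd1-high and 28.5 ± 1.95 CPM in Lypd1-low cells (log2 -0.58 ± 0.17, edgeR adjusted p = 0.200). Among cell adhesion genes 0 of 35 rose and 0 fell (median log2 difference 0.05), and among neurotrophic signalling genes 0 of 14 rose and 0 fell (median log2 difference 0.02). Neurofilaments and axonal cytoskeleton gave 0 calls of 23, ribosomal proteins 0 of 56 and immediate early and dissociation genes 0 of 29. Of neuropeptides and granins 1 of 7 rose and 0 fell (median log2 difference 0.04), the one being Pcsk2. Over all genes tested, 7.75% were higher and 6.52% lower in Lypd1-high cells in 4 of 4 mice.

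For 4158 genes with at least 50 CPM in some class, levels were compared with that of Lypd1 over the 20 combinations of mouse and class (type IA, IB, IC, II and putative neurons). Unnamed Gm and Rik models among them were then left out of the ranking. Of the genes ranked, Ccdc109b followed Lypd1 most closely, with a Pearson r of 0.982 on log2 CPM. The next were Cd164l2 (0.904), Pla2g7 (0.881), Rbfox3 (0.805), Anp32b (0.805), Pcsk2 (0.799), Pou4f1 (0.797), Hmcn1 (0.794), Tmem117 (0.789) and Tmem47 (0.787). Points of 1 class share its label and points of 1 mouse its library, so these values describe the classes.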

How the data were processed

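The authors deposited unnormalized UMI counts, 1 table of genes by cells for each mouse, and a table that gives each cell its class and subtype. Libraries used 10x v2 droplet capture, per the labels' protocols. The submitters' processing notes list Cell Ranger 2.0.1, Seurat 1.4 and the mm10 genome. How cells were filtered and labelled is not stated, no doublet caller was run here, and genes used to define the labels are not independent of them.

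UMI counts of deep type IB cells were summed per mouse and side, without Lypd1. The sums were tested with edgeR 4.0.16 (quasi-likelihood, TMM, filterByExpr, mouse as block; R 4.3.3), with Benjamini-Hochberg adjustment over all 10160 genes tested. DESeq2 1.42.0 was an alternative. The 2 sides are paired because both come from the same animal, and the 4 mice are the replicates. edgeR's p-values draw on a spread shared across genes as well as on each gene's own spread over mice. In the type IB split the shared part had 81.6 prior degrees of freedom, against 3 residual ones. Those p-values therefore rest mostly on the shared spread, so the calls without each mouse are given beside them. The SE of a log2 difference was derived as its absolute value over the square root of edgeR's F statistic. It therefore carries the same shared spread and is not a spread over the mice alone. Shares have exact (Clopper-Pearson) 95% intervals, which cover counting error only. Thinning used random seed 1.

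Named genes are, among those called, the 15 highest and 15 lowest log2 differences with at least 50 UMIs on the higher side and 1 direction in 4 of 4 mice. To these were added all subtype markers, up to 4 members of each list with the largest difference, and the leading genes of the other comparisons. Other called genes were named after their values were seen. The members, lists and tests were chosen with earlier results of these data known. Coordinates are from GENCODE M21. The type IA split was added after the data were seen. One of the called genes is not reported here.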

Additional observations from a re-analysis of the deposited data

Results flagged for a closer look

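In 82 values, each measured in 4 mice, 1 mouse was looked for that lay far from the other 3. Chance flags about 1 in 20 groups, and 6 were found. The log2 difference, Lypd1-high minus Lypd1-low type IB, stood apart in mouse 3 for 1810011O10Rik (-0.91), in mouse 1 for Calb2 (-0.35) and Tagln3 (0.27), and in mouse 4 for Ntng1 (-0.15). For Calb2 and Tagln3 the direction was that of the other 3 mice. Summed CPM, Lypd1-high minus Lypd1-low, stood apart for calcium channel genes in mouse 3 (-42.4) and for calcium-binding protein genes, calbindin and calretinin included, in mouse 1 (99.3), the one mouse whose Lypd1-high sum was the higher.

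The Lypd1 split differed between type IB and type IC by the interaction term for Calb2, with a difference of log2 differences of 0.97. It also differed for the mitochondrial and metabolic genes Ndufa4 (-0.61), mt-Nd1 (-0.55), mt-Co3 (-0.48), mt-Atp6 (-0.43), mt-Cytb (-0.45) and Mdh1 (-0.70), and for Cpe, a peptide-processing enzyme gene (-1.13). All 8 rest on the 12 Lypd1-low type IC cells.

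Between type IB and type IA the split differed for Ntng1 (-1.17), Slc17a6 (-1.09) and the haemoglobin gene Hba-a1 (0.68). The call of Ntng1 was lost without mouse 3, that of Slc17a6 without mouse 3 or 4, and that of Hba-a1 without mouse 1 or 2. DESeq2 called none of the 3.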

How the results depend on the processing

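Against the 20 genes higher and 14 lower in Lypd1-high type IB, DESeq2 called 4 higher and 4 lower. Of the 34 genes, 15 got no adjusted p from it and 11 of the other 19 were not called. Without the replicate block of mouse, edgeR called 6 higher and 0 lower. A threshold of 1 Lypd1 UMI per 10000 gave 9 higher and 9 lower, and 4 per 10000 gave 33 and 22. At least 15000 UMIs per cell gave 11 higher and 8 lower, as did thinning to 10000 UMIs. Equal cell numbers gave 6 higher and 1 lower, and cells up to the median depth 7 and 7. Without the Lypd1-high cells at 10 or more per 10000 there were 4 higher and 1 lower. The lower count was 30 with no filter on low counts, 8 without the deepest cells and 9 with Lypd1-high cells only at 10 or more. Without 1 mouse each, 6 to 24 were higher and 1 to 21 lower. The cause of these shifts was not tested. In each alternative that gave a value, all 34 kept their sign.

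The type IB against type IC interaction (51 genes) gave 22 with RLE size factors, 90 with no filter, 9 without the replicate block, 14 at threshold 4, and 22 to 81 without 1 mouse. Lypd1-high type IB against type IC gave 136 higher and 106 lower with DESeq2, 148 and 137 without the block, 697 and 716 at threshold 1, 73 and 72 at threshold 4, and 223 to 298 higher and 203 to 303 lower without 1 mouse. The type IA split (12 genes) gave 5 with DESeq2, 2 without the block, 3 at threshold 1 and 104 at threshold 4. Its difference from type IB (3 genes) gave 1 with DESeq2, 0 without the block, 7 with no filter, 57 at threshold 4 and 5 at 5000 UMIs per cell. At threshold 4 the Lypd1-high type IA side held only 5, 6, 10 and 3 cells in mice 1 to 4, so the counts of 104 and 57 rest on few cells. The share of Lypd1-high cells (20.8%) was 32.2% at 2 or more UMIs after thinning, 45.7% at threshold 1, 8.76% at 4 and 4.70% at 10, and 19.9% to 22.1% without 1 mouse.

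Of genes not called, the log2 difference of B3gat1 changed sign with equal cells (0.066) and up to the median depth (0.152), and ran from -0.30 to 0.035 without 1 mouse. That of Lypd6 changed sign when thinned (0.068), with cells at 10 or more (0.027) and up to the median depth (0.060), and ran from -0.36 to 0.15 without 1 mouse. That of Lrrc52 changed sign at threshold 1 (-0.28) and 4 (-0.56), with cells at 10 or more (-1.98) and up to the median depth (-0.054), and ran from -0.13 to 0.19 without 1 mouse. That of Ryr3 changed sign with equal cells (-0.12) and with cells at 10 or more (-0.77). Depth limits the low genes: Grm8 and Nup160 rest on at most 40 UMIs a side.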
